A study of Mus musculus with 8 samples.

Results

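The genes described here encode proteins of the secondary (specific) and tertiary (gelatinase) granules of neutrophils, together with surface and secreted proteins made at the same late steps of granulocyte development. They are Ltf, Camp, Ngp, Lcn2, Mmp8, Mmp9, Cd177, Ly6g, Retnlg and Chil3, chosen by symbol from the deposited table, which held all 10 of them among its 48500 genes. RNA was measured in bone marrow leukaemia stem cells of mice whose acute myeloid leukaemia was made with HOXA9 and MEIS1. The sort gave about 10000 cells a library that carried GFP and c-Kit but not Gr-1. The 4 wild-type (WT) libraries came from Nynrin+/+ leukaemias and the 4 Nynrin-KO libraries from Nynrin-/- leukaemias. They are written WT1 to WT4 and KO1 to KO4. Both groups carry the HOXA9 and MEIS1 drivers and the GFP label. The sources used here do not give the design of the knockout allele, the age and sex of the mice or whether each library is a separate mouse. The p-values therefore measure the spread between these libraries.

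Neutrophils load their granules in sequence as they mature. Promyelocytes make the primary granule proteases, myelocytes and metamyelocytes make the specific granule proteins, and band cells make the gelatinase granule proteins. The transcription factor C/EBP epsilon (gene Cebpe) is required for specific granules, and its loss leaves neutrophils without lactoferrin and other specific granule proteins. Gr-1 is the antigen of an antibody that binds Ly6G and, less strongly, Ly6C, so a gate against Gr-1 is meant to remove maturing granulocytes. Normal stem and progenitor cells hold little RNA of these genes.

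Promoter sequences were taken for 9 of the 10 genes (all but Mmp9), from RefSeq (GRCm38.p6), and 4 are printed because they show the stretch before the start of a gene of each kind: the iron-binding specific granule protein lactoferrin (Ltf), a chitinase-like protein (Chil3), the surface antigen of the sort (Ly6g) and the gene with the largest fold change (Retnlg). Each is the 250 bases before the start, written 5′ to 3′ on the strand of the gene. Capitals mark matches on either strand to the C/EBP-type letters TTNNGNAA or the PU.1-type letters GAGGAA, which can overlap.
Ltf, plus strand, chr9:111019042-111019291: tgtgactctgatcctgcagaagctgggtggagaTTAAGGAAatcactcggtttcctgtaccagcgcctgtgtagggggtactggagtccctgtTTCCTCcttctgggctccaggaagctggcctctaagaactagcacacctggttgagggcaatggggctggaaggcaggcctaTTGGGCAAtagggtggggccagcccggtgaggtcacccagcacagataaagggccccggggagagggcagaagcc
Chil3, minus strand, chr3:106167565-106167814: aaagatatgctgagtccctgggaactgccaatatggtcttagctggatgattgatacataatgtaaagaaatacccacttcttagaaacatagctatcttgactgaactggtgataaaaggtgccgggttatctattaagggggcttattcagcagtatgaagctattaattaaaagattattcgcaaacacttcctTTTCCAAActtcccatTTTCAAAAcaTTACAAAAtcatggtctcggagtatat
Ly6g, plus strand, chr15:75155011-75155260: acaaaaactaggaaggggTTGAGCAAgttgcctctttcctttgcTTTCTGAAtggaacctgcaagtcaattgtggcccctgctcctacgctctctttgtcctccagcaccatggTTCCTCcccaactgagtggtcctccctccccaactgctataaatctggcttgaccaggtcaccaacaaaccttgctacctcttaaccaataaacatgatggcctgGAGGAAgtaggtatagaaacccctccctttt
Retnlg, plus strand, chr16:48872358-48872607: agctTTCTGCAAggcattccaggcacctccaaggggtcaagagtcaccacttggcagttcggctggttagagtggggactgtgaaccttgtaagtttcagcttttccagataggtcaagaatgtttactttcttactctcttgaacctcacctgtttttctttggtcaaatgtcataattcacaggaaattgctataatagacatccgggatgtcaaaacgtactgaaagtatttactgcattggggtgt

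At least 1 C/EBP-type match lay in the window of 8 of these 9 genes, the exception being Camp, and such a match lay in 36.8% of all 32851 promoter windows of the same length. A PU.1-type match lay in the window of 5 of the 9, against 23.3% of all windows. The chitinase-like gene Chil3 and the cathelicidin-related gene Ngp held 3 C/EBP-type matches each. Some windows hold transcribed sequence: 197 of the 250 bases for Lcn2, 161 for Camp and 61 for Ngp lie in GENCODE exons. So do 21 bases in each of the printed windows of Ltf and Ly6g. The starts of Ltf, Chil3 and Cd177 equalled a GENCODE transcript start, and those of the other genes did not. Ly6g had 2 entries, of which the window with fewer exon bases is printed. The matches are letters in a window, with no measure of binding.

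Levels are in FPKM, reads per kilobase of transcript scaled to the depth of the library. The depth recovered from the values ranged from 1825620 reads in KO3 to 33071641 reads in WT1. The value that 3 reads give a transcript of 1 kb was 0.0907 FPKM in WT1 and 1.64 FPKM in KO3. These limits cover counting error only, since reads copied by PCR carry no molecular identifiers here. Kit, the gene of the c-Kit antigen used in the sort, stood at 2.63 to 6.40 FPKM in WT and 2.92 to 4.91 FPKM in Nynrin-KO (log2 change -0.30, limma adjusted p = 0.405). Cd34, a progenitor surface gene, stood at 55.7 to 151 FPKM in WT and at 5.54 to 7.30 FPKM in Nynrin-KO. The drivers were low as measured by the mouse genes, with Hoxa9 at 0.569 to 1.90 and Meis1 at 0.664 to 0.898 FPKM in WT. In Nynrin-KO they stood at 1.70 to 6.38 and 2.03 to 5.13 FPKM.

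Libraries at the edges of the groups bear on what follows. WT1, the deepest library, was the lowest WT library for all 10 granule genes, and KO1 was the highest Nynrin-KO library for all 10. KO1 also held 12.7 FPKM of the X-inactivation RNA Xist and 2.18 FPKM of the Y-linked gene Ddx3y, whereas the WT libraries held Xist with at most 0.111 FPKM of Ddx3y. KO2 to KO4 held 18.2 to 20.7 FPKM of Ddx3y with at most 0.366 FPKM of Xist. Sex and genotype cannot be told apart in the comparison of these groups. Changes of the 10 granule genes are given with and without WT1 and KO1. Changes of other genes are from all 8 libraries unless stated.

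All 10 granule genes had a higher mean in Nynrin-KO than in WT, and 5 of the 10 rose past the threshold, namely Retnlg, Ly6g, Mmp9, Lcn2 and Mmp8. None fell. The threshold was an adjusted p of 0.05 in limma on log2(FPKM + 1), a scale on which folds of weakly expressed genes come out too small, fitted over 12524 genes. In that fit 27.9% of all genes tested passed: 14.0% rose and 13.8% fell. Every Nynrin-KO library stood above every WT library for 6 of the 10, against 16.7% of all genes tested. The median log2 change of the 10 was 2.45, beside -0.03 over all genes tested. In the same comparison 5 of 12 tested monocyte and macrophage markers rose and 2 fell. Of 5 tested mast cell and basophil markers 3 rose and 1 fell, and of 4 eosinophil markers 2 rose. Both tested erythroid markers rose, but they reached 1 FPKM only in Nynrin-KO, so the filter on low values kept them through that group. The part of all these markers in the levels of the granule genes was not tested. All 10 passed the filter on low values, and only Ly6g in WT1 stood below 1 FPKM.

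The number that rose depended on single libraries. It was 6 without WT1 and 7 without WT4, but 3 without WT3, 2 without KO3 and 1 when WT2, KO1, KO2 or KO4 was left out. Without WT1 the background of genes that rose was 9.39%, and without KO1 it was 10.8%. Of all genes tested, 1349 of 11615 rose without WT2, 1568 of 11710 without WT3 and 1532 of 11750 without WT4. Those that rose were 1048 of 12072 without KO2, 1875 of 11584 without KO3 and 1020 of 12101 without KO4. Without both WT1 and KO1, 4 of the 10 rose against a background of 6.72%, and the median log2 change of the 10 was 1.14. Scaling to the genes outside the neutrophil lists moved the median of all genes from -0.03 to 0.13 and the split of all calls to 2491 higher and 1339 lower, from 1754 and 1734, and 6 of the 10 then rose. The log2 change of each of the 10 was above 0 in all 8 libraries and in 22 other fits.

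**Figure D1:**
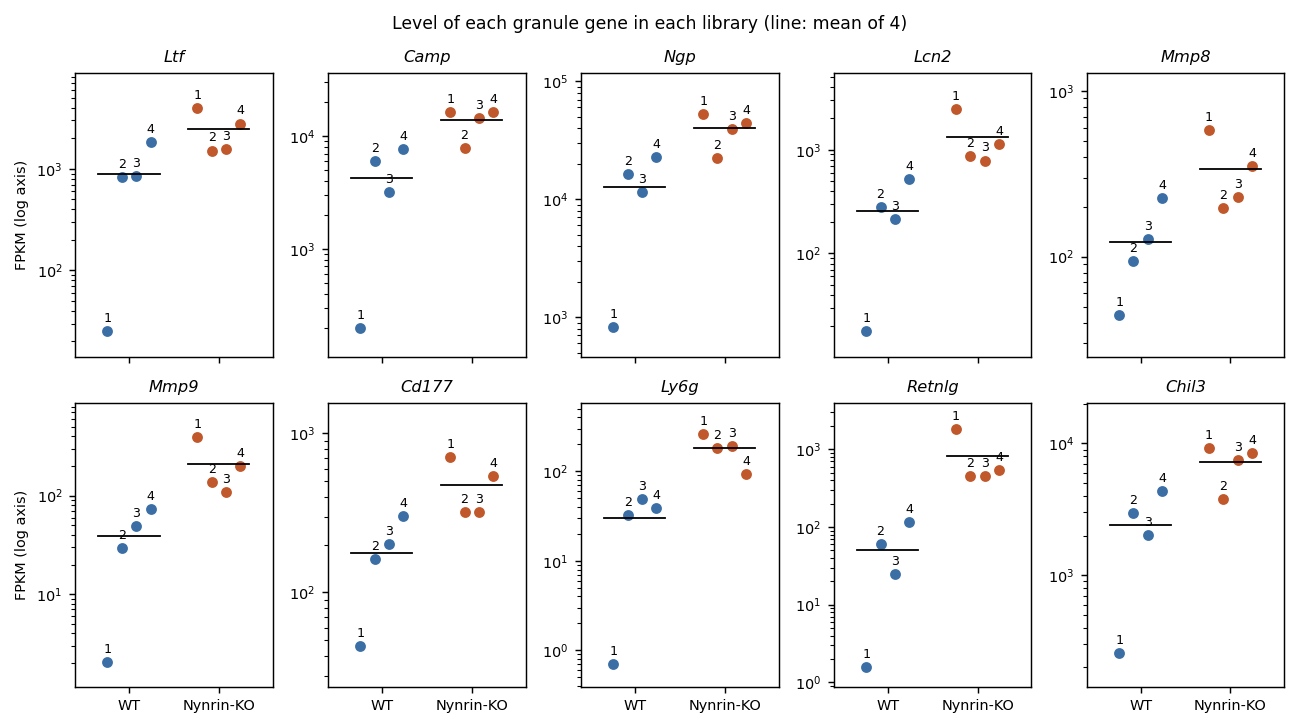
Level of each of the 10 granule genes in FPKM (log axis) in the 4 WT (blue) and 4 Nynrin-KO (orange) libraries, with the library number above each point and the group mean as a line. WT1 is the lowest point in all 10 panels and KO1 the highest, and the groups overlap for Ltf, Ngp, Mmp8 and Chil3.

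The most abundant of the 10 were antimicrobial and related proteins of the specific granules. Ngp (ENSMUSG00000032484, mm10 chromosome 9, 110419747 to 110423012), which encodes a neutrophilic granule protein related to cathelicidins and cystatins, stood at 824, 16223, 11531 and 22578 FPKM in WT1 to WT4. In KO1 to KO4 Ngp stood at 53197, 22476, 39666 and 44116 FPKM. WT4 and KO2 overlapped narrowly, and the other 3 Nynrin-KO libraries were above all WT libraries. The means were 12789 ± 9172 and 39864 ± 12887 FPKM (SD, n = 4 each), and the log2 change of 2.31 (SE 0.93) did not pass (limma adjusted p = 0.0958). Without WT1 the log2 change of Ngp was 1.23 and it passed (limma adjusted p = 0.0432). Without WT1 and KO1 it was 1.07 and did not pass (limma adjusted p = 0.0934). Ngp alone took 0.101%, 1.98%, 1.41% and 2.76% of the recovered reads in WT1 to WT4 and 6.50%, 2.75%, 4.85% and 5.39% in KO1 to KO4, so WT4 and KO2 overlapped in this share too.

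Camp (ENSMUSG00000038357, chromosome 9, 109847379 to 109849617) encodes the mouse cathelicidin, the precursor of the antimicrobial peptide CRAMP. Its levels were 198, 6036, 3177 and 7697 FPKM in WT1 to WT4 and 16349, 7815, 14537 and 16289 FPKM in KO1 to KO4. The groups did not overlap, but WT4 reached 98.5% of the level of KO2. The log2 change of 2.50 (SE 1.02) did not pass in all 8 libraries (limma adjusted p = 0.10) and did without WT1 (1.32, limma adjusted p = 0.0455). Without WT1 and KO1 it was 1.22 (limma adjusted p = 0.0986).

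Ltf (ENSMUSG00000032496, chromosome 9, 111019271 to 111042767) encodes lactoferrin, the iron-binding marker protein of specific granules. It stood at 25.2, 826, 857 and 1840 FPKM in WT1 to WT4 and at 3982, 1518, 1587 and 2800 FPKM in KO1 to KO4. WT4 lay above KO2 and KO3, so the groups overlapped more than for Ngp. The log2 change of 2.40 (SE 1.16) did not pass (limma adjusted p = 0.155), and Ltf passed in none of the 22 other fits, where its adjusted p ranged from 0.0866 to 0.438. Its log2 change was 1.06 without WT1 and 0.79 without WT1 and KO1.

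Chil3 (ENSMUSG00000040809, chromosome 3, 106147554 to 106167564), which encodes the chitinase-like protein Ym1, was the third most abundant. It stood at 257, 2947, 2031 and 4372 FPKM in WT1 to WT4 and at 9236, 3808, 7494 and 8529 FPKM in KO1 to KO4. WT4 lay above KO2. The log2 change of 2.09 (SE 0.79) did not pass (limma adjusted p = 0.0796), and it passed without WT4 (2.57, limma adjusted p = 0.0470). Without WT1 the change was 1.21 (limma adjusted p = 0.0574), and without WT1 and KO1 it was 1.07 (limma adjusted p = 0.122). The near copy Chil4 shares an exact run of 136 bases with a Chil3 transcript, but stood at only 0.118 to 7.82 FPKM over the 8 libraries.

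Lcn2 (ENSMUSG00000026822, chromosome 2, 32384633 to 32388252) encodes lipocalin 2, a siderophore-binding protein that withholds iron from bacteria. Lcn2 stood at 18.0, 279, 215 and 517 FPKM in WT1 to WT4 and at 2482, 878, 787 and 1126 FPKM in KO1 to KO4. Every Nynrin-KO library was above every WT library. Lcn2 rose by 2.92 on the log2 scale (SE 0.92, limma adjusted p = 0.0432). The call was lost without any one of WT2, WT3, KO1, KO2, KO3 and KO4, with an adjusted p of up to 0.107, and held without WT1 (1.9, limma adjusted p = 0.0249) and without both WT1 and KO1 (1.55, limma adjusted p = 0.0330).

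The matrix metalloproteinases of the granules moved by different amounts. Mmp9 (ENSMUSG00000017737, chromosome 2, 164940780 to 164955850) encodes gelatinase B, the protein that defines tertiary granules. It stood at 2.07, 29.7, 49.8 and 73.4 FPKM in WT1 to WT4 and at 398, 137, 108 and 201 FPKM in KO1 to KO4. The groups did not overlap, and Mmp9 rose by 2.93 on the log2 scale (SE 0.92, limma adjusted p = 0.0420). The call was lost without WT2, KO1, KO2 or KO4, with an adjusted p of up to 0.104, and held without WT1 (1.94, limma adjusted p = 0.0277) and without both WT1 and KO1 (1.57, limma adjusted p = 0.0386).

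Mmp8 (ENSMUSG00000005800, chromosome 9, 7558456 to 7568485) encodes neutrophil collagenase, a specific granule enzyme. It stood at 44.6, 93.8, 128 and 225 FPKM in WT1 to WT4 and at 581, 197, 230 and 350 FPKM in KO1 to KO4, with WT4 above KO2. Mmp8 rose by 1.55 on the log2 scale (SE 0.51, limma adjusted p = 0.0495), the smallest change of the 5 that passed. It passed in 1 of the 8 fits that left out 1 library, the fit without WT4 (limma adjusted p = 0.0207). Without WT1 and KO1 the log2 change was 0.84 (limma adjusted p = 0.177).

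Ly6g and Cd177 encode surface proteins anchored to the membrane by glycosylphosphatidylinositol. Ly6g (ENSMUSG00000022582, chromosome 15, 75155240 to 75159126) stood at 0.707, 32.7, 49.3 and 38.7 FPKM in WT1 to WT4 (22, 218, 91 and 628 reads). In KO1 to KO4 its levels were 264, 182, 190 and 93.5 FPKM (2359, 3956, 327 and 2525 reads). All 4 Nynrin-KO libraries were above all WT libraries, and the lowest of them, KO4, was not KO2 as for 5 of the 10 genes. Ly6g rose by 3.23 on the log2 scale (SE 0.98, limma adjusted p = 0.0381). Without WT1 the change was 2.08 with a smaller adjusted p (0.00729 in limma), and without WT1 and KO1 it was 1.87 (limma adjusted p = 0.0174). The call was lost without WT2, KO1, KO2, KO3 or KO4, with an adjusted p of up to 0.0905.

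Cd177 (ENSMUSG00000052212, chromosome 7, 24743983 to 24760311) encodes a protein of specific granules and the cell surface that binds the endothelial protein PECAM1. It stood at 46.0, 161, 203 and 301 FPKM in WT1 to WT4 and at 707, 323, 320 and 539 FPKM in KO1 to KO4. The groups did not overlap, with WT4 at 93.9% of the lowest Nynrin-KO library. The log2 change of 1.6 (SE 0.55) did not pass (limma adjusted p = 0.0572) and passed without WT4 (1.95, limma adjusted p = 0.0315). Without WT1 the change was 1.05 (limma adjusted p = 0.0689), and without WT1 and KO1 it was 0.83 (limma adjusted p = 0.135).

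Retnlg (ENSMUSG00000022651, chromosome 16, 48872621 to 48874496), which encodes the secreted resistin-like protein gamma, had the largest fold change of the 10. It stood at 1.58, 61.0, 24.9 and 116 FPKM in WT1 to WT4 (31, 256, 29 and 1189 reads) and at 1802, 450, 449 and 535 FPKM in KO1 to KO4. The highest WT library reached 25.9% of the lowest Nynrin-KO library, the widest gap of the 10. Retnlg rose by 4.66 on the log2 scale (SE 1.07, limma adjusted p = 0.0131). It was the only one of the 10 that passed in all 22 other fits, with log2 changes of 3.06 to 5.37 and adjusted p of 0.00620 to 0.0429. The value of 3.06 is without WT1 and KO1 (limma adjusted p = 0.0157). KO1 stood at 4.0 times the median of KO2 to KO4, and without it Retnlg still rose by 4.18 (limma adjusted p = 0.0371).

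**Figure D2:**
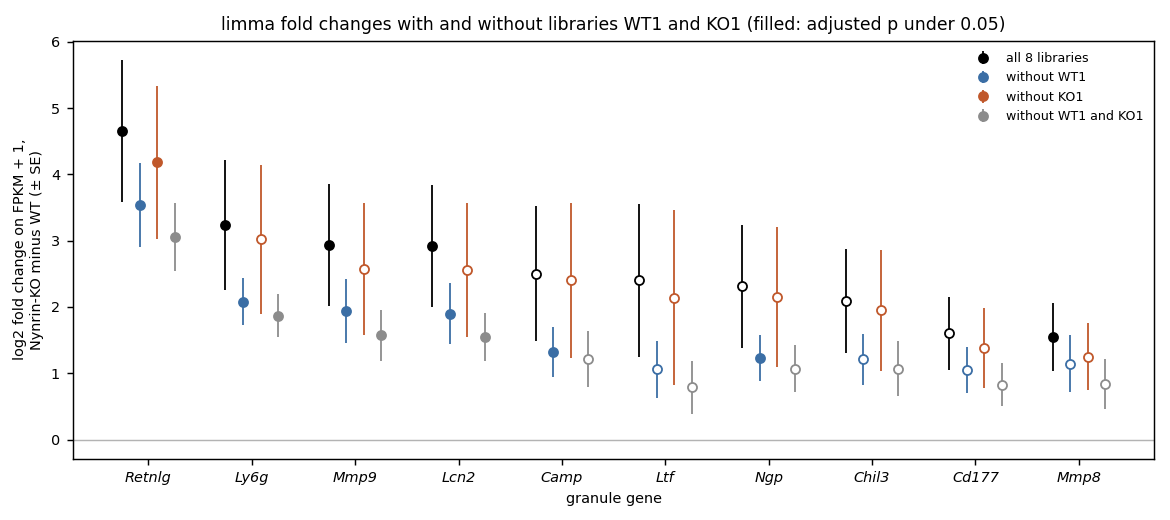
log2 fold change (Nynrin-KO minus WT, on FPKM + 1) with its standard error for each granule gene, from all 8 libraries, without WT1, without KO1 and without both; filled points have a limma adjusted p under 0.05. Leaving out WT1 lowers all 10 values and narrows their errors, and Retnlg is filled in all 4 fits.

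Most of the RNA from these 10 genes came from 3 of them. Ngp, Camp and Chil3 gave 88.5% to 94.4% of the summed FPKM of the 10 in each library, in both groups. Together the 10 genes took 0.189%, 3.24%, 2.34% and 4.76% of the recovered reads in WT1 to WT4 and 11.2%, 4.69%, 7.87% and 9.20% in KO1 to KO4. The share in KO2 was below that in WT4. In bulk RNA, fewer cells of a type and less RNA per cell cannot be told apart. S100a8, an abundant neutrophil gene outside the granules, had a log2 change of 2.51 that did not pass (limma adjusted p = 0.0975). Ngp stood at 0.431 to 0.640 of the S100a8 level in WT and at 0.383 to 0.557 in Nynrin-KO. Against Mpo, the myeloperoxidase gene of primary granules, Ngp stood at 0.462, 9.99, 10.8 and 17.2 times in WT1 to WT4 and at 78.5, 38.2, 76.6 and 33.9 times in KO1 to KO4, with no overlap.

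Levels within the group of 10 did not keep fixed ratios. Camp and Ngp stayed closest, with an SD of 0.23 for their log2 ratio over the 8 libraries. Mmp8 and Cd177 followed each other as well (SD 0.25), as did Ngp and Chil3 (0.28) and Lcn2 and Mmp9 (0.31). The pair that varied most was Mmp8 and Retnlg (SD 1.98). Retnlg per 1000 FPKM of Ngp was 1.92, 3.76, 2.16 and 5.15 in WT1 to WT4 and 33.9, 20.04, 11.3 and 12.1 in KO1 to KO4. No Nynrin-KO library overlapped a WT library in that ratio, and this was also so for Retnlg against Ltf, Camp, Lcn2, Chil3, Mmp8, Mmp9 and Cd177, but not against Ly6g. Some pairs without Retnlg did not overlap either, namely Mmp9 and Lcn2, each against Cd177 and against Mmp8. Ly6g per 1000 FPKM of Ngp was 0.857 to 4.27 in WT and 2.12 to 8.11 in Nynrin-KO, and Camp was 241 to 372 and 307 to 369, both with overlap. WT1 stood apart in the other direction for Mmp8, with 54.1 FPKM per 1000 of Ngp against 5.78 to 11.1 in the other 7 libraries. Its Mmp8 level was 34.7% of the median of WT2 to WT4 and its Cd177 level 22.7%, whereas the other 8 genes were at 1.83% to 8.72%.

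**Figure D3:**
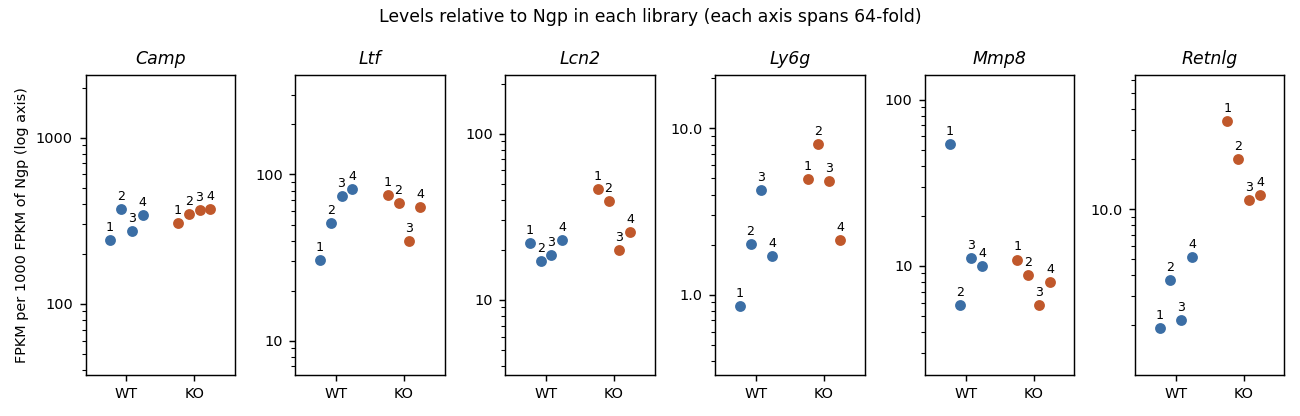
Level of Camp, Ltf, Lcn2, Ly6g, Mmp8 and Retnlg per 1000 FPKM of Ngp (log axes of equal span) in the 4 WT (blue) and 4 Nynrin-KO (orange, KO) libraries, with library numbers. The groups separate for Retnlg, with at most 5.15 in WT and at least 11.3 in Nynrin-KO, and WT1 stands high for Mmp8 at 54.1.

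Transcription factors of granulocyte development moved in part. Of 8 listed factors 3 rose and none fell (median log2 change 0.52). Cebpe, the factor of specific granule genes, stood at 2.80, 17.4, 12.7 and 18.0 FPKM in WT1 to WT4 and at 64.8, 60.2, 25.6 and 69.1 FPKM in KO1 to KO4. It rose by 2.17 on the log2 scale (SE 0.54, limma adjusted p = 0.0178) with no overlap, and the call held without each library in turn. KO2 and KO4 were close to KO1 in Cebpe, while KO2 was lower than KO1 and KO4 in all of the 10 but Ly6g. Gfi1, a repressor needed for neutrophil development, rose by 1.02 from 0.814 to 1.58 FPKM in WT to 2.30 to 5.09 FPKM in Nynrin-KO. The Gfi1 call was lost without KO4. It was also lost without both WT1 and KO1, where the log2 change was 0.78 (limma adjusted p = 0.102). Klf5 rose by 1.41. Cebpa and Spi1, the master factors of the myeloid lineage, did not pass (log2 changes of -0.20 and 0.31, limma adjusted p = 0.538 and 0.653).

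Other genes of the same granules were mostly higher. Of 15 further specific granule genes 10 rose and 1 fell, with a median log2 change of 1.57. Lrg1, which encodes a leucine-rich glycoprotein, rose from 0.362 to 5.48 FPKM in WT to 10.1 to 65.7 FPKM in Nynrin-KO. Orm1, an acute-phase glycoprotein gene, rose by 2.66 and Itgb2, the integrin beta chain of leukocytes, rose by 2.35. The member that fell was Slpi, an inhibitor of neutrophil serine proteases, at 1784 to 2329 FPKM in WT and 255 to 790 FPKM in Nynrin-KO (log2 change -2.33, limma adjusted p = 0.00263). Of 11 tested genes of gelatinase granules and secretory vesicles, out of 12 listed, 9 rose and none fell, with a median of 1.68. Among them were the formyl peptide receptor gene Fpr2, which rose by 3.09, the lectin receptor genes Clec4e and Clec4d, which rose by 1.68 and 2.09, and Mcemp1, which rose by 2.34.

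Primary granule genes went both ways. Of 8 tested, out of 9 listed, 2 rose and 3 fell. The serine protease gene Ctsg (cathepsin G) went from 1860 to 4369 FPKM in WT to 538 to 1100 FPKM in Nynrin-KO, and Prtn3 (proteinase 3) fell by 1.65 on the log2 scale. Mpo, named after its values were seen, fell by 0.98 (limma adjusted p = 0.0459), a call lost without WT1, WT2, WT4, KO1, KO2 or KO3, with adjusted p up to 0.262 over the other fits. Elane, the neutrophil elastase gene, also named after its values were seen, had a log2 change of 1.02 that did not pass (limma adjusted p = 0.101). Ms4a3 and Cd63, the latter a membrane protein of primary granules, rose by 3.49 and 3.33. The summed level of the primary granule list was 4827.5 to 8196 FPKM in WT and 2500.5 to 6129 FPKM in Nynrin-KO.

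Neutrophil genes outside the granules were higher more often than not. Of 14 listed 8 rose and none fell (median log2 change 2.0). The chemokine gene Ccl6, G0s2, the G-CSF receptor gene Csf3r and the cytokine gene Il1b rose by 3.25, 3.49, 1.89 and 2.95. The protease inhibitor genes of the stefin family, Stfa2, Stfa2l1 and Stfa3, did not pass, with log2 changes of 1.74, 2.11 and 0.71. Among listed inhibitors and partners, Timp2 and Reck, both inhibitors of metalloproteinases, rose by 1.25 and 1.10 at low level (1.48 to 3.70 and 2.202 to 3.83 FPKM in Nynrin-KO). Timp2 reached 1 FPKM only in Nynrin-KO, so the filter on low values kept it through that group. Pecam1, the binding partner of CD177, fell from 23.2 to 46.0 FPKM in WT to 9.07 to 10.8 FPKM in Nynrin-KO (log2 change -1.62, limma adjusted p = 0.00194). Timp1 was at most 0.460 FPKM and was not tested.

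**Figure D4:**
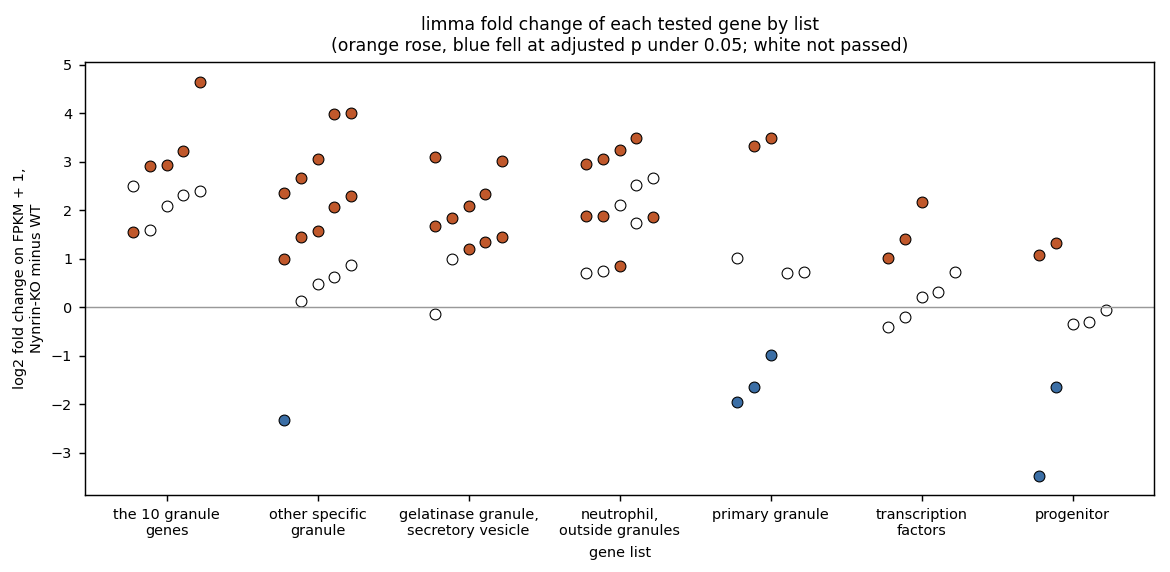
log2 fold change (Nynrin-KO minus WT, on FPKM + 1) of each tested gene in 7 lists, coloured where limma's adjusted p was under 0.05 (orange rose, blue fell, white not passed). The 10 granule genes lie between 1.55 and 4.66, and primary granule genes lie on both sides of 0, from -1.96 to 3.49.

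Close relatives of the 10 genes were examined because short reads can be shared. The longest exact run between transcripts of Ly6g and Ly6c2 was 42 bases, and between Ly6g and Ly6i it was 51 bases. Ly6c2, which encodes the Ly6C part of the Gr-1 antigen, did not pass (log2 change 0.39, limma adjusted p = 0.476), at 948 to 2178 FPKM in WT and 1077 to 3193 FPKM in Nynrin-KO. Ly6g per 1000 FPKM of Ly6c2 was 0.745 to 40.1 in WT and 57.1 to 178 in Nynrin-KO, with no overlap. Ly6i and Ly6a rose by 3.99 and 3.09. Ly6a overlapped between the groups, with WT4 at 23.0 FPKM and KO4 at 20.6 FPKM. In both genes KO2 and KO3 were high, at 317 and 240 FPKM of Ly6i against 40.8 in KO1 and 36.4 in KO4. The order of the Nynrin-KO libraries in Ly6i thus differed from that in Ly6g, where KO1 was highest. Ly6c1 (7.02 to 62.4 FPKM) did not pass. Retnla shares a run of 49 bases with Retnlg and stood at 34.9 FPKM in KO1 and 1.11 to 8.03 FPKM in the other libraries (log2 change 0.92, limma adjusted p = 0.380). Retn stood at 0 to 3.24 FPKM. Chil1, a further chitinase-like gene, had a log2 change of 2.47 (limma adjusted p = 0.0719), and Chia1 stood at 0.018 to 1.95 FPKM. The transferrin gene Trf, a relative of Ltf, stood at 16.4 to 35.5 FPKM with a log2 change of 0.01. The metalloproteinase genes Mmp2 and Mmp3 reached at most 1.25 and 2.13 FPKM, in KO3.

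The genes most like the mean of the 10 were sought among 3184 other genes with a mean of at least 10 FPKM. Gene models and all genes of the granule and neutrophil lists were left out of the search. Likeness was the SD over 8 libraries of the log2 difference from that mean. The mean of the 10 itself had an SD of 1.95 over the libraries. The 10 nearest of the 3184 were Chil1, Mrgpra2b, Itgb2l, Il1f9, Fcnb, Mogat2, Csta2, Cstdc6, Ly6g5b and Cstdc4, with SDs of 0.29 to 0.58. Of these, 6 rose. They were picked for following the mean of the 10, which was higher in Nynrin-KO, so this count is no separate result. Itgb2l stood at 1.90 to 38.6 FPKM in WT and 63.0 to 152 FPKM in Nynrin-KO, and Fcnb, the gene of the lectin ficolin B, at 6.48 to 137 and 172 to 404 FPKM. The likeness to the mean is a description of these 8 libraries, in which WT1 is far below the rest.

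Markers of other blood cells moved in the same comparison. Of 12 monocyte and macrophage markers 5 rose and 2 fell. The macrophage genes Apoe and Vcam1 rose by 4.76 and 3.84 on the log2 scale, and the complement genes C1qa and C1qb by 2.77 and 2.76 (limma adjusted p = 0.00163, 0.00153, 0.000650 and 0.00197), calls that held in 22 of 22 other fits. Apoe stood at 2.51 to 9.27 FPKM in WT and 67.3 to 410 FPKM in Nynrin-KO, with no overlap. The other that rose was C1qc, by 2.30. F13a1, at 377 to 984 FPKM in WT and 57.9 to 155 FPKM in Nynrin-KO, and Irf8 fell by 2.35 and 1.74. C1qc, F13a1, Irf8, Csf1r, Ccr2, Adgre1, Cd68 and Klf4 were named after their values were seen. The summed level of the 12, of which F13a1 is the largest member in WT, was 687 to 1530.4 FPKM in WT and 476 to 1359.9 FPKM in Nynrin-KO. Csf1r and Ccr2, also on the list of 12, did not pass (log2 changes of 1.31 and 0.19, limma adjusted p = 0.0531 and 0.805). The macrophage markers Adgre1 and Cd68 did not pass either (log2 changes of -0.02 and -0.11, limma adjusted p = 0.968 and 0.867). Their means were 38.8 and 147 FPKM in WT and 41.6 and 148 FPKM in Nynrin-KO. Klf4 had a log2 change of 1.01 that did not pass (limma adjusted p = 0.0685).

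Of 5 tested mast cell and basophil markers, out of 6 listed, 3 rose and 1 fell. The protease gene Cpa3, the histamine synthesis gene Hdc and the IgE receptor gene Ms4a2 rose by 3.55, 2.91 and 2.34, and the transcription factor gene Gata2 changed by -1.06. The summed level was 7.78 to 13.2 FPKM in WT and 48.3 to 116 FPKM in Nynrin-KO, highest in KO1. Of 4 tested eosinophil markers, out of 8 listed, 2 rose: Ear2 by 3.71 and Siglecf by 1.62. The other tested markers, Prg2 and Prg3, did not pass (log2 changes of -1.54 and -0.64, limma adjusted p = 0.421 and 0.613). Mean Prg2 was lower in Nynrin-KO, at 52.6 FPKM against 174 in WT. Summed over all 8 listed genes, the WT libraries ranged from 13.2 to 434 FPKM (mean 225). For the Nynrin-KO libraries this sum ranged from 73.6 to 264 FPKM (mean 137), so the groups overlapped. Prg2 was its largest member in WT2 to WT4. Both tested erythroid markers, out of 7 listed, rose, the globin genes Hbb-bs by 2.79 and Hba-a1 by 2.13. These globin genes and Ms4a2 reached 1 FPKM only in Nynrin-KO, so the filter on low values kept them through the group where they are high. The erythroid sum was 0.260 to 2.24 and 5.69 to 45.7 FPKM, also highest in KO1, and the erythroid factor gene Klf1 was at 0 in KO2 and KO3.

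Lymphoid and megakaryocyte markers were mostly below the filter. Of 6 T and NK cell markers 1 was tested, the granzyme gene Gzma, which rose by 1.96 (limma adjusted p = 0.0188), a call lost without WT1. Cd4, Klrb1c, Cd3e, Cd3d and Cd8a were not tested. Every Nynrin-KO library was above every WT library for Cd4 and Klrb1c, at most 1.32 and 1.46 FPKM. The groups overlapped for Cd3e, Cd3d and Cd8a. Such separation held for 16.7% of all genes tested. The sum of the 6 was 0.161 to 2.89 FPKM in WT and 4.87 to 15.3 FPKM in Nynrin-KO. Of 4 tested B cell markers, out of 5 listed, Cd79a rose by 2.003, and the sum of the 5 was 160 to 259 and 168 to 197 FPKM. Cd79b, Ighm and Ms4a1 did not pass (log2 changes of -0.23, -0.19 and 1.11, limma adjusted p = 0.495, 0.535 and 0.0594). Of 3 megakaryocyte markers 1 was tested, Pf4, which rose by 0.95, a call lost without WT1, and the sum was 0.296 to 1.22 and 2.39 to 4.94 FPKM. Of 7 progenitor genes 2 rose (Meis1 by 1.33, Hoxa9 by 1.08) and 2 fell (Cd34 by 3.48, Flt3 by 1.65), and the sum was 90.8 to 243 and 35.4 to 59.2 FPKM. The Flt3 call was lost without KO1, KO2 or KO4. The Hoxa9 call was lost without WT1, WT2, WT4, KO1, KO2 or KO4, with limma adjusted p up to 0.228 over the other fits. For Hoxa9 the groups overlapped, with WT3 at 1.90 FPKM and KO3 at 1.70 FPKM. Cd79a, Pf4 and Meis1 reached 1 FPKM only in Nynrin-KO, so the filter kept them through the group where they are high. The part of these markers, of depth and of the sort in the levels of the granule genes was not tested.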

How the data were processed

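RNA-seq was made from sorted cells with a low-input full-length cDNA kit, per the labels' protocols. The authors deposited one table with 8 value columns, 1 per library, whose values were read as FPKM, because they were not whole and low values were multiples of a step that scaled with gene length. The submitters' processing notes name the build mm10 and the tools Bowtie 0.12.9, Cufflinks 2.1.1 and HTSeq without saying what each did, and the sources used here give neither the counting rule nor the use of strand. No other annotated gene of the table overlapped any of the 10. A single step per library turned 99.43% to 99.46% of the values checked into whole reads, with a tolerance of 0.1 read. Gene coordinates, counted from 1, are from GENCODE M21 (GRCm38, also called mm10), which held 99.52% of the identifiers.

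limma 3.58.1 in R 4.3.3 was fitted to log2(FPKM + 1) of every gene that reached 1 FPKM in 4 or more of the 8 libraries. Group was the sole term, variances were moderated with a trend and robustly, tests were two-sided, and p-values were adjusted by Benjamini-Hochberg over all genes tested, with a threshold of 0.05. Every adjusted p is from limma. The 10 genes and all lists were chosen with earlier results of these data known. Of each list, up to 4 members past the threshold with the smallest p are named, and otherwise up to 2 with the highest mean. Every listed relative at 1 FPKM or more in any library, the nearest tested protein-coding neighbours and the 10 most alike genes are also candidates for naming. S100a8, Elane, Mpo, Kit, Cebpa, Spi1 and the other genes named outside this rule were chosen after their values were seen. The alternatives were the pseudocount, the filter, scaling, the variance model, array weights, a block for the replicate number, libraries left out, voom on recovered reads, and the threshold. Python 3.11.15 with pandas 2.3.3, numpy 2.4.6 and matplotlib 3.10.9 was used for descriptions and plots.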

Additional observations from a re-analysis of the deposited data

Results flagged for a closer look

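The Retnlg level of KO1, 1802 FPKM, stood far from the other 3 Nynrin-KO libraries, which lay between 448.6 and 535.3 FPKM. The gap was 0.936 of the range of the group, above Dixon's critical value for 4 libraries. It was the only such library among 20 groups of 4 examined (10 genes in 2 genotypes), and chance flags about 1 in 20. Leaving KO1 out changed the log2 change of Retnlg from 4.66 to 4.18.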

How the results depend on the processing

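All 10 granule genes kept a log2 change above 0 in 22 other fits. The number that rose was 5 of 10, and it was 1 with a pseudocount of 0.1, 1 with no filter on low values, 1 without WT3 and KO3 (the shallowest libraries), 2 in the 5 libraries high in the gene model Gm10800, 8 at an adjusted p of 0.1 and 0 at an adjusted p of 0.01 in limma, where 9 of the 10 had an unadjusted p under 0.05. With voom on recovered reads 4 rose at 0.05, beside 2349 of all 12524 genes tested. Of all genes tested, 1651 of 12524 rose with a pseudocount of 0.1 and 790 of 48500 with no filter. Those that rose were 1809 of 10747 without WT3 and KO3 and 211 of 11125 in the 5 libraries high in Gm10800. Leaving out 1 library at a time gave 1 to 7. The number of all genes past the threshold was 3488. It was 1698 with no filter, 1579 without WT1 and KO1 and 925 in the 5 libraries high in Gm10800. At an adjusted p of 0.1 in limma it was 4604, and at 0.01 it was 1454. The number of all genes past the threshold was 3606 without KO3 and 3776 without WT3 and KO3. The cause of these differences was not tested. Same-numbered libraries did not deviate together (correlations of their deviations from the group means of -0.213, -0.389, 0.329 and 0.00756), so the numbers were not taken as pairs. With the replicate block 1 granule gene rose, Retnlg, beside 1357 of all 12524 genes tested. In that fit 2838 of all genes passed in either direction. For Ly6g in WT1 and Retnlg in WT1 and WT3 the level rests on 22, 31 and 29 reads.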

Other observations

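Ltf, Camp and Ngp lie within 1195 kb of chromosome 9. Of the nearest tested protein-coding genes on either side of these 3 genes, Ccrl2 beside Ltf rose by 1.79 and Klhl18 beside Ngp rose by 0.82 on the log2 scale, and Lrrc2 beside Ltf changed by -1.08 (limma adjusted p = 0.00318, 0.00856 and 0.0340). The neighbours Nme6 and Cdc25a of Camp and Scap of Ngp did not pass. Beside Cd177 both neighbours rose, Ceacam10, itself a listed specific granule gene, by 2.30 and Ethe1 by 0.77. Beside Chil3, Chil5 rose by 1.73 and Chil4 did not pass. The neighbours of Lcn2, Mmp8, Mmp9, Ly6g and Retnlg did not pass.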
